A study of Mus musculus with 42 samples.

Results

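Circadian clock genes were followed across the deposited expression table of mouse carotid intima and cultured aortic endothelial cells. The set was chosen by name and held 10 genes of the 21674 read from the table, namely the activators Arntl and Clock, the repressors Per1, Per2, Per3, Cry1 and Cry2, the nuclear receptors Nr1d1 and Nr1d2, and the output factor Dbp. All 10 passed the filter on low counts in each of the 13 comparisons. The study lowered flow in the left carotid artery by partial ligation and flushed RNA from the inner layer of the artery, the intima. Each intimal library pooled flushes of several arteries. Untreated young male C57BL/6J mice gave 3 pools each of low flow, of contralateral high flow and of sham operation at 48 hr. Further 48 hr libraries came from such mice given an IgG control antibody (2 low, 2 high flow), anti-GPIba, which depletes platelets (2 low flow), anti-Gr1, which depletes granulocytes (2 low flow), PBS liposomes (2 low, 2 high flow) or clodronate liposomes, which deplete macrophages (2 low flow), with 1 more low-flow pool each of PBS and clodronate liposomes read at 100 bp. At 7 d, mice of both sexes on a C57 background with loxP sites in both copies of Rbfox2, which encodes a splicing regulator, and an inducible Cre driven from an endothelial Cdh5 promoter and a Rosa26-mTmG reporter (Rbfox2 EC-KO) were compared with littermates that carried the same floxed gene and reporter without Cre (control). This gave 3 low-flow and 2 high-flow libraries per genotype. Cultured cells were 3 libraries of sorted primary aortic endothelial cells (eGFP+ cells, Rbfox2 control and Rbfox2 EC-KO) and 4 of a TetOn-SV40 aortic endothelial line, which is a single line and was kept with SV40 off. The line was left untreated or given 10% plasma, platelets with macrophages, or the combination. The hour at which the mice were killed is not given in the sources used here.

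The clock is a transcriptional feedback loop that runs in nearly every cell. Arntl (also called Bmal1) and Clock form a pair that binds E-box sequences and drives the Per, Cry, Nr1d and Dbp genes. The Per and Cry proteins then block that pair, and Nr1d1 and Nr1d2, also known as Rev-erb alpha and beta, repress Arntl through RORE sequences. Dbp is a bZIP factor that carries the rhythm to target genes through D-box sequences. In arteries the loop is known to pattern vascular tone and endothelial function over the day. Arntl and Dbp peak at roughly opposite times.

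The start sites of 9 members could be read from RefSeq promoter windows on GRCm38.p6, each 250 bases before to 50 bases after an annotated start. Per2 had no window. The letters searched on both strands were CACGTG for the E-box, TTATGTAA or TTACGTAA for the D-box and AGGTCA for the core of the RORE, and matches of different motifs did not overlap in the members' windows. They were in 7.15%, 1.06% and 16.3%, respectively, of the 32851 windows of all genes. The windows of Cry2, Dbp and Nr1d1 held none of these letters, which says nothing of sequences outside them. The matches shown here are those in the windows of Cry1, Per1, Per3, Nr1d2 and Arntl, because they cover repressors, a nuclear receptor and an activator described in the results. Capitals mark the motif, and each line reads 5′ to 3′ on the strand of the gene. Clock and Per1 also held the RORE letters, on the opposite strand.
Cry1 E-box: gtgccggtggtCACGTGgggtgcatgcc
Per1 E-box: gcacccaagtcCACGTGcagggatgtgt
Per3 first D-box: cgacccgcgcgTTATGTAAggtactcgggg
Per3 second D-box: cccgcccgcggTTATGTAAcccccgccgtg
Nr1d2 RORE core: attggaagaagAGGTCAggaccgctcgt
Arntl RORE core: aggcagaaagtAGGTCAgggacggaggt
They lie at chr10:85185098-85185125 (minus strand), chr11:69098772-69098799 (plus), chr4:151044852-151044881 and chr4:151044805-151044834 (both minus), chr14:18239167-18239194 (minus) and chr7:113207531-113207558 (plus). The Arntl match starts 31 bases after the start site and the others lie upstream. These are matches of letters, and binding was not measured here.

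Values are FPKM, that is counts scaled to the gene's effective length and the library's total, computed from the deposited expected counts. Fold changes are on edgeR's TMM scale, which also corrects for the makeup of a library, so they can be smaller than a ratio of FPKM. Library totals were 4064477 to 6794904 counts in the untreated pools, 12286104 to 19035957 in the 48 hr antibody and liposome libraries, 10318685 to 18633538 at 7 d, 4989843 to 16394043 in cultured cells and 5223017 and 5901210 in the single 100 bp pools. Low-flow pools a and b of the untreated set stood apart, with Actb at 10.57% and 10.1% of counts, against 3.74% in pool c and 0.52% to 1.5% in the high-flow and sham pools. Overlapping genes limit the counting, since no source used here states that strand was read. On NCBIM37, the build of the table, Nr1d1 (chr11:98629246-98636647) shares 1075 bases with Thra, Dbp (chr7:52960458-52965525) shares 689 bases with Sphk2, and Cry2 (chr2:92243803-92274200) shares 23417 bases with D930015M05Rik, each on the opposite strand, so reads from these stretches cannot be told apart. Rbfox2 was at 3.27, 5.73 and 2.74 FPKM in the 7 d low-flow control libraries numbered 1, 4 and 5 and at 1.09, 0.169 and 0.623 in EC-KO, and at 3.66 and 3.84 against 0.792 and 1.05 at high flow, so no EC-KO library reached the lowest control, although the differences did not pass over all genes (-2.61 and -2.06, adjusted p = 0.69 and 1).

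Other cells moved with flow in the untreated pools. The 14 macrophage markers summed to 2177 to 3503 FPKM at low flow, 64.9 to 167 at high flow and 211 to 663 in sham, and none of them was at 0 in all pools of a group. The 10 S and G2/M phase genes summed to 599 to 735, 94.3 to 116 and 112 to 428 FPKM. The 11 endothelial markers summed to 2051 to 2488, 4435 to 4716 and 3914 to 4716 FPKM. The 8 smooth muscle markers summed to 1444 to 2699, 318 to 380 and 264 to 1015 FPKM, the 9 neutrophil markers to 699 to 1521, 18.8 to 32.0 and 17.1 to 105, with Cd177 at 0 in all high-flow pools, and the 8 fibroblast and adventitia markers to 28.0 to 183, 192 to 406 and 232 to 303. Sums follow the most abundant markers and are not corrected for the makeup of a library. In edgeR, between low and high flow, 11 of 12 macrophage markers tested, 9 of 9 neutrophil markers and 10 of 10 S and G2/M phase genes were higher, 4 of 11 endothelial markers were lower and 2 higher (median 0.12), and 3 of 6 smooth muscle markers were higher (median 0.29). Lower were 7 of 7 fat cell markers (median -5.54), 3 of 8 fibroblast and adventitia markers (median -1.33) and 1 of 5 platelet markers (median -0.52), with 0 higher in these lists. Cdh5, the endothelial cadherin, was at 44.4, 35.6 and 57.2 FPKM at low flow and 42.6, 68.1 and 57.9 at high flow, which overlap. The part of these shifts in the clock genes was not tested, and in bulk RNA fewer cells of a type and less RNA per cell cannot be told apart.

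In the high-flow pools, which hold the untreated level of the contralateral artery, Per3 was the most abundant member (25.1 to 42.9 FPKM) and its range lay above all others. Nr1d1 (11.1 to 18.8), Cry2 (12.9 to 13.3), Dbp (7.28 to 11.8) and Nr1d2 (4.65 to 12.7) followed. Of these neighbours Nr1d1 overlapped the other 3, and Cry2 lay above Dbp and Nr1d2. Per2 (5.20 to 5.85) lay above Per1 (3.58 to 5.11), and Clock, Arntl and Cry1 overlapped at 0.899 to 3.75 FPKM. Levels differed widely between the untreated pools and the later libraries (the median of Per3 was 25.1 against 4.58 FPKM, and that of Cry1 1.63 against 12.6), so levels are compared within a set only.

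The first comparison asked how clock genes differ between low flow and high flow at 48 hr. At low flow 6 members were lower, all of the repressor and output arms, and neither activator passed the test. Per1, Per2, Per3, Cry2, Nr1d2 and Dbp fell by 1.42 to 2.34 on the log2 scale, 2.67-fold to 5.05-fold, in edgeR's quasi-likelihood test. That is 6 of 10 members, against 22.6% of the 11236 genes tested that were lower. The median change of the members was -1.51, against -0.07 over all genes tested.

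Per2, the period protein whose loss shortens rhythms, was at 0.388, 0.119 and 1.79 FPKM in low-flow pools a, b and c and at 5.20, 5.62 and 5.85 at high flow. Every low-flow pool lay below every high-flow pool, and Per2 fell by 2.34 ± 0.40 (SE) on the log2 scale (adjusted p = 0.00086). Per3, which modulates period length, was at 4.26, 1.86 and 8.31 against 25.1, 25.9 and 42.9 FPKM. The groups did not overlap, and the fall was 2.13 ± 0.31 (adjusted p = 0.00032). Per1, the period gene that also answers to glucocorticoids, was at 0.294, 0.601 and 2.11 against 5.11, 4.31 and 3.58 FPKM, again with no overlap (-1.61 ± 0.38, adjusted p = 0.0054).

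Of the cryptochromes Cry2 passed and Cry1 did not, and the difference between them was not tested. Cry2 was at 1.52, 1.58 and 4.86 FPKM at low flow and at 12.9, 13.2 and 13.3 at high flow, so its high-flow pools were nearly equal and all low-flow pools lay below them (-1.75 ± 0.22, adjusted p = 0.0001). Cry1, the stronger repressor of the pair, was at 0.461, 0.0784 and 1.96 against 0.899, 2.34 and 1.53 FPKM. Its pools overlapped and it did not pass (-0.42 ± 0.55, adjusted p = 0.55), with 1 to 41 counts per pool.

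Dbp was at 0.384, 0.440 and 4.23 FPKM at low flow and at 11.8, 7.28 and 10.2 at high flow. The groups did not overlap (-2.04 ± 0.50, adjusted p = 0.0069), and pools a and b held 4 and 3 Dbp counts. Nr1d2 was at 1.73, 0.751 and 4.53 against 4.65, 10.2 and 12.7 FPKM, with the highest low-flow pool close below the lowest high-flow pool (-1.42 ± 0.38, adjusted p = 0.012). Its paralog Nr1d1 overlapped between groups at 3.85, 5.53 and 16.8 against 18.8, 11.1 and 16.1 FPKM (-0.30 ± 0.30, adjusted p = 0.42). Thra, the thyroid hormone receptor gene that overlaps Nr1d1 on the other strand, fell by 1.10 ± 0.29 (adjusted p = 0.011), and its part in the Nr1d1 counts was not tested.

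Arntl was at 1.17, 0.897 and 2.23 FPKM at low flow and at 1.45, 3.75 and 0.958 at high flow, and Clock at 0.883, 0.645 and 1.94 against 1.54, 2.26 and 2.61. Both overlapped and neither passed the test (Arntl 0.07 ± 0.45, adjusted p = 0.91, and Clock -0.28 ± 0.26, adjusted p = 0.38). Pool c, with less Actb, was the highest low-flow pool for all 10 members. Without it the same 6 members were lower, and Dbp was at -3.50 and Per2 at -3.28.

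Scaling changed the size of these values. With libraries scaled by their total alone, the median change of all genes was -0.69, Arntl turned from 0.07 to -0.53 and Nr1d1 was at -0.81, but neither passed, and the count of members called stayed at 6. Over all genes 2652 were higher and 2543 lower with TMM, and 1044 higher and 3084 lower with the total alone.

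**Figure D1:**
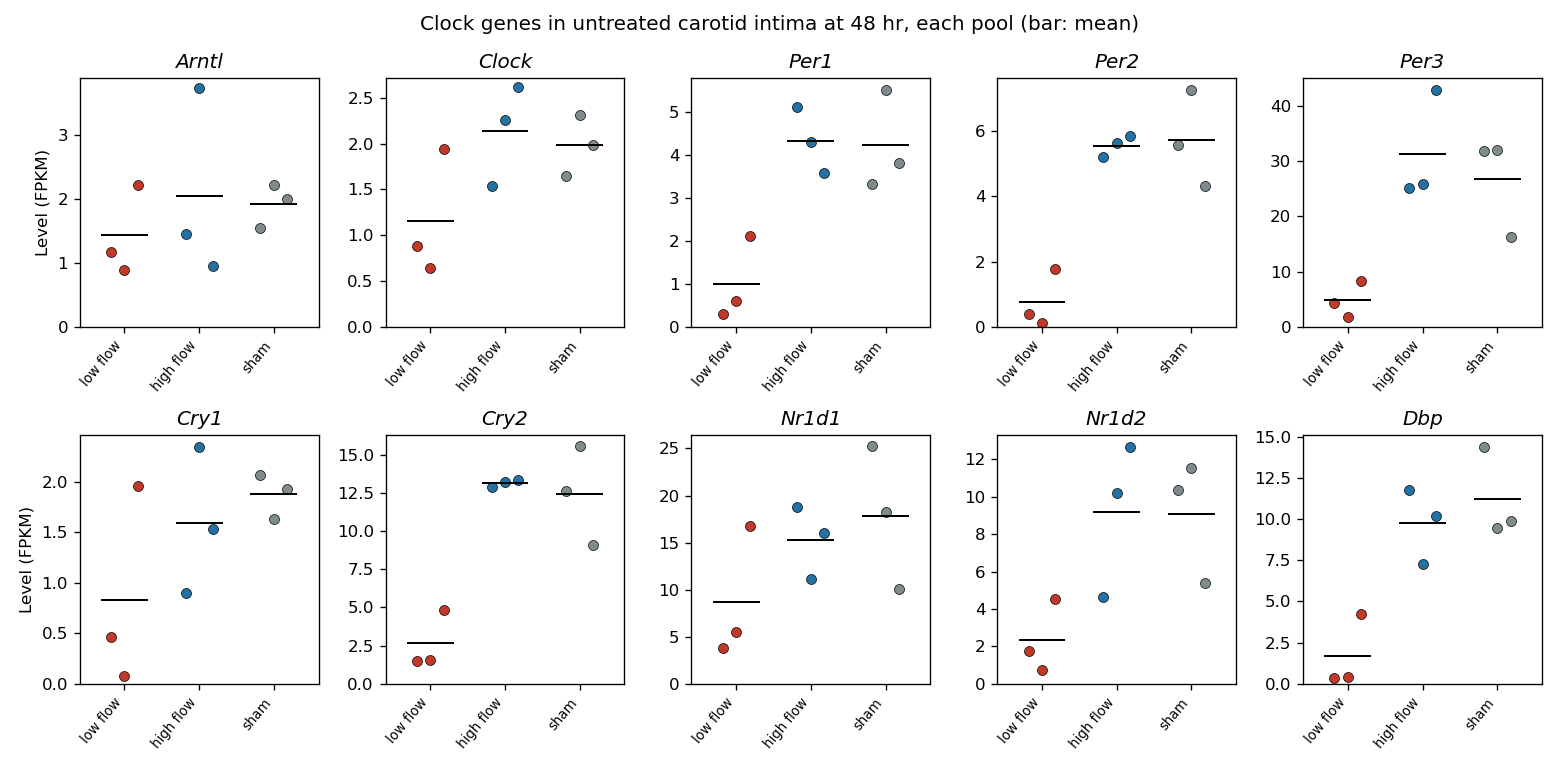
Level in FPKM (vertical axis, linear from 0) of each clock gene in each untreated 48 hr pool, with 1 point per pool and a bar at the mean of 3 pools. Low-flow pools lie below all high-flow and sham pools for Per1, Per2, Per3, Cry2, Nr1d2 and Dbp, and overlap with them for Arntl, Clock, Cry1 and Nr1d1.

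Sham-operated arteries, which carry normal flow, separate a change under low flow from a change in the contralateral artery. Against sham, Per1, Per2, Per3, Cry2, Nr1d2 and Dbp were lower at low flow by 1.36 to 2.34 on the log2 scale, 6 of 10 members against 19.7% of 11164 genes that were lower. Sham pools were at 5.58, 7.26 and 4.32 FPKM for Per2, 14.4, 9.46 and 9.88 for Dbp and 12.6, 15.6 and 9.11 for Cry2. None of these overlapped with low flow (Per2 -2.34 ± 0.45, adjusted p = 0.0058; Dbp -2.20 ± 0.51, adjusted p = 0.011; Cry2 -1.62 ± 0.26, adjusted p = 0.0028). This comparison shares the low-flow pools with the one before. Nr1d2 lost its call without low-flow pool a or b or without sham pool a or b (-1.07 to -1.38, adjusted p 0.054 to 0.067), and Per1 without low-flow pool b (adjusted p = 0.062).

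High flow and sham could not be separated for any member. The changes ran from -0.17 for Cry1 to 0.29 for Per3, with SE of 0.19 to 0.46 and ranges that overlapped for all 10. No member was called, and 0% of 11030 genes passed in edgeR, with 868 genes at an unadjusted p under 0.05 and 101 called by DESeq2.

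Other genes of the loop fell beside the members at low flow. Of 17 other clock regulators, 12 could be tested against high flow, and 8 were lower and 2 higher, against 22.6% of all genes lower and 23.6% higher, and the median of the list was -1.26 against -0.07 over all genes. Hlf and Tef, the bZIP relatives of Dbp, were at -2.51 ± 0.51 and -2.07 ± 0.36 on the log2 scale, and Rora, an activator that competes with Nr1d1 and Nr1d2, was at -2.21 ± 0.38. Bhlhe40, an E-box repressor, was at -1.32 ± 0.20, and Gm129 (Ciart), another repressor of the loop, at -1.27 ± 0.41. The higher 2, named after their values were seen, were Timeless, a replication fork protein (1.00 ± 0.28), and Csnk1d, a kinase of Per proteins (0.55 ± 0.17). Against sham 7 were lower and 2 higher, where 19.7% of all genes were lower and 20.6% higher, and the median was -0.96 against -0.04.

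Of 10 clock-controlled output genes 9 were tested, with 5 lower and 0 higher, beside the same shares of all genes (22.6% and 23.6%), and their median was -1.0 against -0.07 over all genes. Pparg, a nuclear receptor of fat cells, fell by 4.06 ± 0.95, and the fat cell markers summed to 71.2 to 147 FPKM at low flow and 544 to 4759 at high flow. Tenc1 (Tns2, a tensin) was at -2.03 ± 0.25, Klf10 at -1.74 ± 0.23, Nampt, the enzyme of NAD salvage, at -1.09 ± 0.25 and Wee1, a cell cycle kinase, at -0.86 ± 0.23. Of 12 glucocorticoid-responsive genes 7 were lower, Per1 among them, and 1 was higher, with a median of -1.67 beside the same -0.07. Klf9 was at -2.44 ± 0.33, Tsc22d3 at -2.20 ± 0.30, Mt2 at -2.04 ± 0.29, Ddit4 at -1.99 ± 0.52 and Dusp1 at -1.76 ± 0.21, whereas Errfi1, an inhibitor of EGF receptor signalling, rose by 2.16 ± 0.41. Against sham 3 of 8 output genes were lower (median -0.66), and 5 of 12 glucocorticoid-responsive genes were lower and 2 higher (median -0.86).

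**Figure D2:**
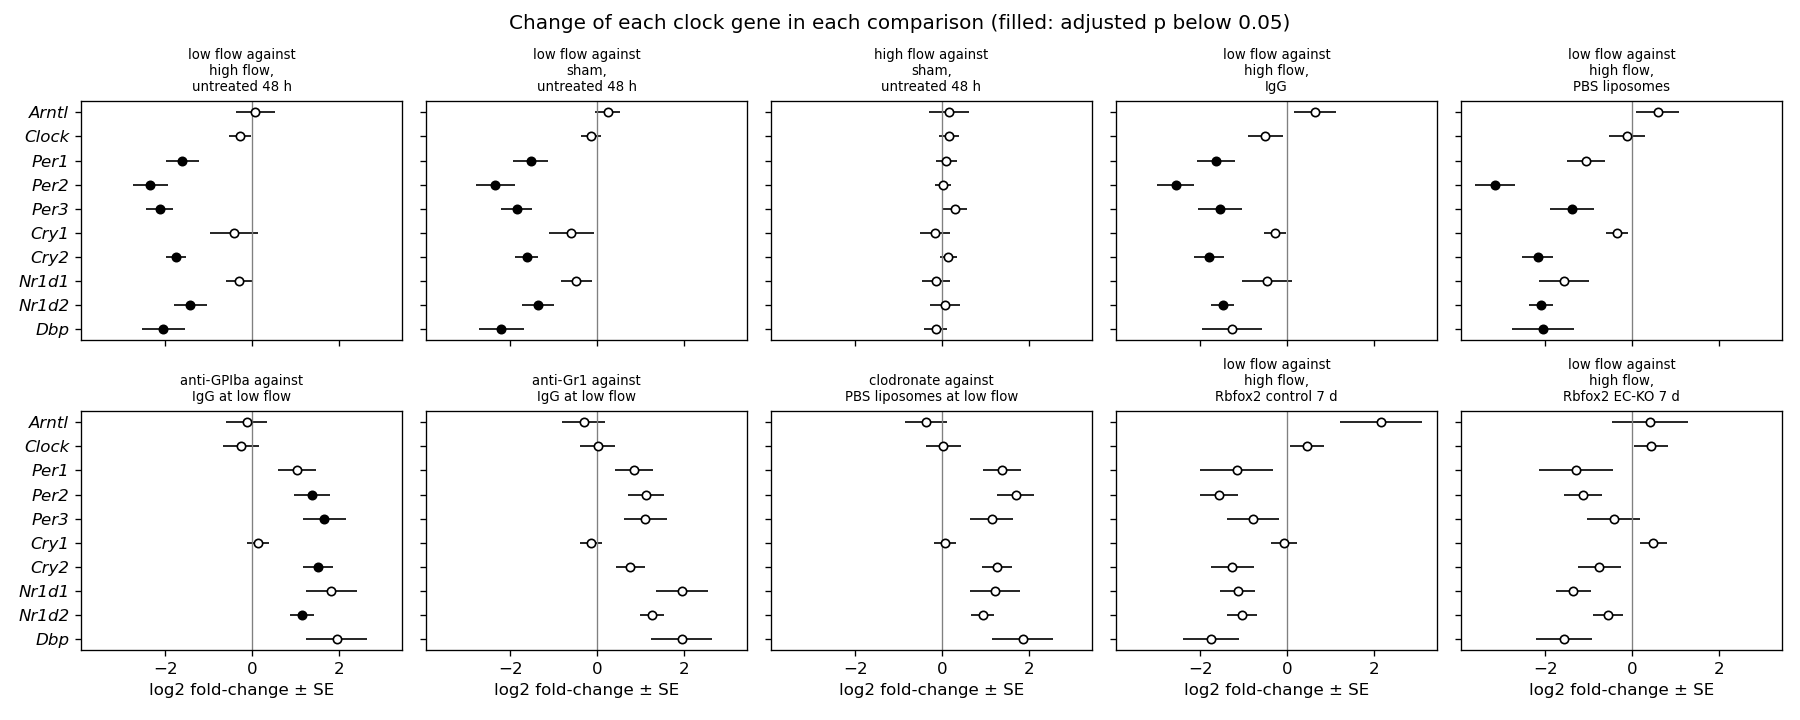
Log2 fold-change of each clock gene (horizontal axis, bars are SE) in 10 comparisons, filled where the adjusted p was below 0.05 in edgeR. The members that fall at low flow lie right of 0 in the depletion panels, while Arntl and Clock pass in none of the 10 comparisons.

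The IgG and PBS liposome libraries give the flow comparison again in other mice. In the IgG mice Per1, Per2, Per3, Cry2 and Nr1d2 were lower at low flow, 5 of 10 members against 17.7% of 13401 genes. Per2 was at 5.64 and 3.68 FPKM at low flow and at 21.1 and 30.4 at high flow (-2.56 ± 0.43, adjusted p = 0.0018). Cry2 was at 16.1 and 9.87 against 38.8 and 45.4 (-1.79 ± 0.34, adjusted p = 0.0031), and Nr1d2 at 25.1 and 17.8 against 46.2 and 66.2 (-1.48 ± 0.27, adjusted p = 0.0027). For each of these the low-flow libraries lay below the high-flow ones. Per1 (-1.63 ± 0.43) and Per3 (-1.54 ± 0.50) lost their calls without low-flow library 2 (adjusted p = 0.12 and 0.21), and Per3 also without either high-flow library (adjusted p = 0.068 and 0.095).

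Dbp and Nr1d1 did not pass in the IgG mice. Dbp was at 37.6 and 9.70 FPKM at low flow and at 82.5 and 24.6 at high flow, and Nr1d1 at 34.7 and 14.7 against 52.0 and 12.4. In each group library 1 was the higher, and the groups overlapped (Dbp -1.26 ± 0.69, adjusted p = 0.16, and Nr1d1 -0.46 ± 0.57, adjusted p = 0.54). Without high-flow library 1 the change of Dbp was -0.17, and without low-flow library 1 it was -2.51 and passed (adjusted p = 0.041).

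In the PBS liposome mice Per2, Per3, Cry2, Nr1d2 and Dbp were lower at low flow, 5 of 10 against 15.5% of 13401 genes. Per2 was at 1.33 and 1.09 FPKM against 15.5 and 7.67, a fall of 3.15 ± 0.45 or 8.88-fold (adjusted p = 0.00086). Nr1d2 was at 20.1 and 16.1 against 85.6 and 81.8 (-2.10 ± 0.28, adjusted p = 0.00056). Dbp was at 22.6 and 16.3 against 71.9 and 101 FPKM, again without overlap (-2.04 ± 0.71, adjusted p = 0.043).

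Nr1d1 was at 34.2 and 25.1 against 86.6 and 104 FPKM, without overlap, at -1.57 ± 0.58 (adjusted p = 0.055), and passed in DESeq2 (adjusted p = 0.013). Per1 was at 1.21 and 0.948 against 3.08 and 1.77 (-1.06 ± 0.44, adjusted p = 0.081). Per3 sat at the threshold (-1.38 ± 0.50, adjusted p = 0.050) and lost its call with RLE scaling or without either low-flow library or high-flow library 1 (adjusted p 0.098 to 0.39). Dbp lost its call when any of the 4 libraries was left out (adjusted p 0.10 to 0.21).

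Cry1, Clock and Arntl passed in neither set. Arntl was at 4.71 and 6.13 FPKM at low flow against 2.89 and 3.65 in the IgG mice, and at 5.59 and 4.94 against 3.17 and 4.42 in the PBS mice. Both sets had every low-flow library above every high-flow library, but the differences of 0.64 ± 0.49 and 0.59 ± 0.49 did not pass (adjusted p = 0.31 and 0.37). In the first header line of the table, the code that opens the names of the read files differs between the low-flow and high-flow libraries of these mice, so flow and whatever that code marks cannot be told apart here, whereas the untreated pools carry a single code. Macrophage markers summed to 2238 to 2385 FPKM at low flow against 71.5 to 269 at high flow in the IgG mice and to 1360 to 2238 against 108 to 203 in the PBS mice. Endothelial markers summed to 2023 to 2427 against 5748 to 6020 and to 2068 to 2208 against 4269 to 5169. Fibroblast and adventitia markers were at 115 to 154 against 382 to 384 and at 73.4 to 99.6 against 209.5 to 242. Smooth muscle markers were at 2670 to 2853 against 263 to 409 and at 1829 to 3619 against 259 to 514. The part of these markers in the results was not tested.

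Of 15 other clock regulators tested, 5 were lower and 0 higher in the IgG mice, where 17.7% of all genes were lower and 22.8% higher, with Npas2, a stand-in for Clock, at -2.66 ± 0.70, Tef at -2.29 ± 0.45, Hlf at -1.68 ± 0.58 and Rora at -1.38 ± 0.48 among them. In the PBS mice 6 were lower, led by Tef (-2.45 ± 0.46) and Npas2 (-2.23 ± 0.69), and Nfil3, the repressor that competes with Dbp, rose by 1.61 ± 0.40, where 15.5% of all genes were lower and 19.6% higher. Of the 10 output genes 3 and 4 were lower in the IgG and PBS mice, with Tenc1 at -3.09 ± 0.46 and -3.02 ± 0.46 and Klf10 at -1.48 ± 0.28 and -2.45 ± 0.29. Of the 12 glucocorticoid-responsive genes 6 were lower and 1 higher in the IgG mice, and 2 of 12 lower and 3 higher in the PBS mice, the latter shares near those of all genes.

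Depletion of blood cells asked whether the low-flow profile depends on recruited cells. With platelets depleted, Per2, Per3, Cry2 and Nr1d2 were higher than in IgG libraries at low flow, 4 of 10 members against 6.05% of 13401 genes that were higher. Cry2 was at 40.0 and 35.3 FPKM with anti-GPIba and at 16.1 and 9.87 with IgG (1.51 ± 0.34, adjusted p = 0.026). Per2 was at 14.1 and 10.5 against 5.64 and 3.68 (1.37 ± 0.42, adjusted p = 0.046). Per3 was at 8.29 and 6.98 against 3.35 and 1.40 (1.66 ± 0.50, adjusted p = 0.044). Both anti-GPIba libraries lay above both IgG libraries for these genes.

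Nr1d2 was at 51.0 and 45.7 against 25.1 and 17.8 FPKM (1.15 ± 0.27, adjusted p = 0.029). Dbp at 95.7 and 87.9 against 37.6 and 9.70 (1.94 ± 0.70, adjusted p = 0.074), Nr1d1 at 82.4 and 95.1 against 34.7 and 14.7 (1.82 ± 0.58, adjusted p = 0.053) and Per1 at 5.21 and 5.63 against 3.63 and 1.59 (1.03 ± 0.43, adjusted p = 0.11) had no overlap either but did not pass. Arntl, Clock and Cry1 changed by -0.13, -0.26 and 0.14. The anti-GPIba levels of Cry2, Nr1d2 and Per3 stood beside those of high flow in the IgG mice (38.8 and 45.4, 46.2 and 66.2, 6.95 and 6.03 FPKM), whereas those of Per2 and Per1 lay below it (21.1 and 30.4, 7.83 and 7.37 FPKM) and those of Dbp and Nr1d1 above it (82.5 and 24.6, 52.0 and 12.4 FPKM). This is a description with no test.

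These calls rest on few libraries. When any of the 4 libraries was left out no member passed (adjusted p 0.051 to 0.29 for the 4 called), although each change kept its direction, while DESeq2 called Dbp and Nr1d1 as well (adjusted p = 0.015 and 0.0071). The macrophage markers summed to 218 to 339 FPKM with anti-GPIba and 2238 to 2385 with IgG, the S and G2/M phase genes to 62.6 to 83.3 and 531 to 891, and the endothelial markers to 3777 to 3787 and 2023 to 2427. The smooth muscle markers summed to 423 to 597 and 2670 to 2853 FPKM, and the neutrophil markers to 6.90 to 15.7 and 180 to 532, with Trem1 at 0 in both anti-GPIba libraries. The platelet markers summed to 16.2 to 31.6 and 42.6 to 48.2 FPKM, and of 7 tested in edgeR 1 was higher and 1 lower. Fibroblast and adventitia markers summed to 276.5 to 542 and 115 to 154 FPKM, and fat cell markers to 130 to 1100 and 42.0 to 256. The part of any of these in the result was not tested. Of the other clock regulators 4 of 15 were higher, among them Hlf (2.12 ± 0.58), Tef (1.93 ± 0.45) and Rora (1.58 ± 0.48), and of the output genes Pdk4 (1.92 ± 0.47), Tenc1 (1.89 ± 0.44) and Por (1.32 ± 0.23). Of the glucocorticoid-responsive genes Zbtb16 (2.22 ± 0.69), Pdk4 and Klf9 (1.83 ± 0.40) were higher, and none of the 3 lists held a gene that was lower, where 6.05% of all genes were higher and 10.5% lower.

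**Figure D3:**
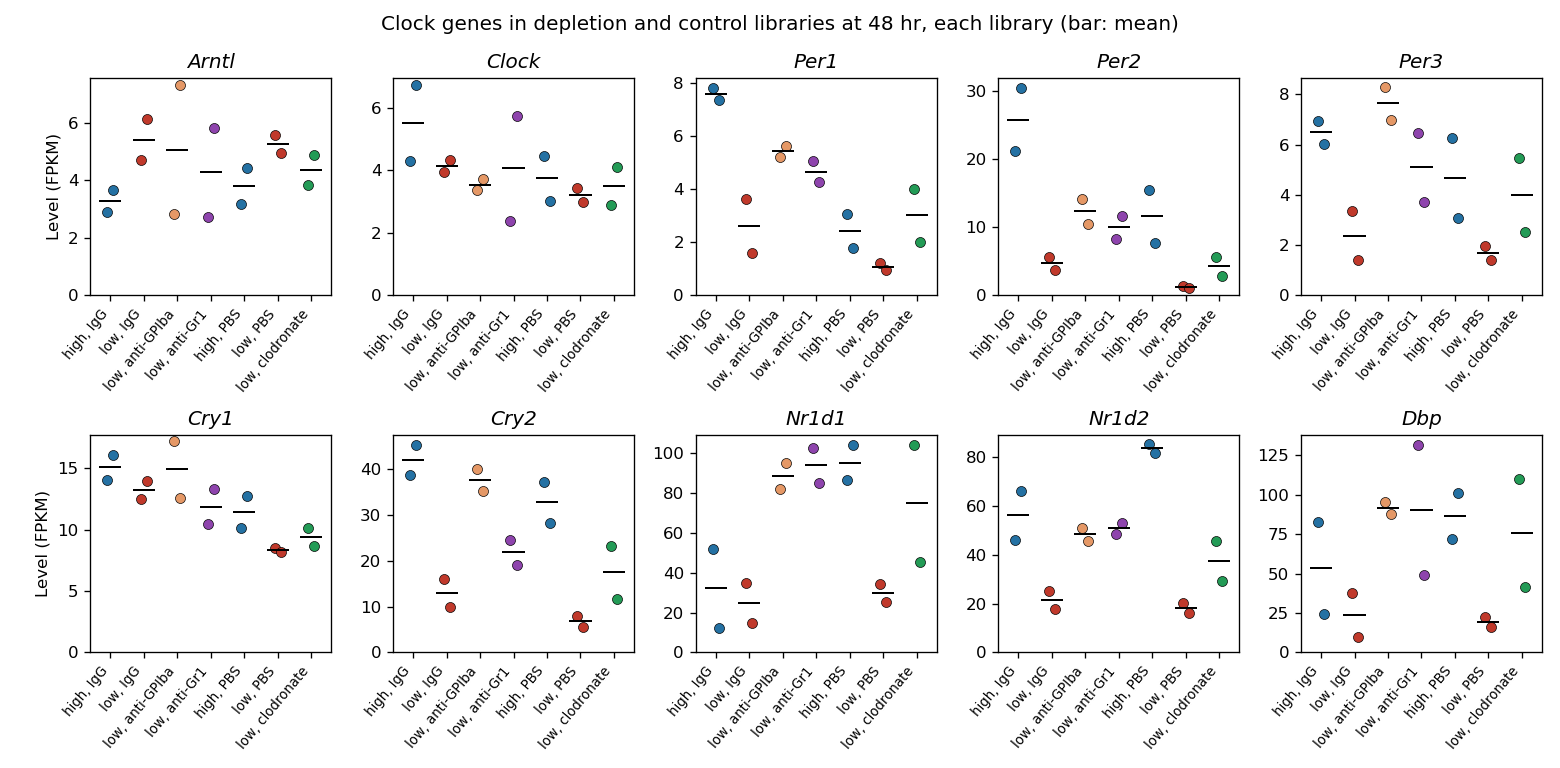
Level in FPKM (vertical axis, linear from 0) of each clock gene in each 48 hr library of the antibody and liposome mice, with a bar at the mean of 2 libraries. For Per2, Cry2 and Nr1d2 every anti-GPIba, anti-Gr1 and clodronate library lies above both low-flow libraries of its own control.

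Anti-Gr1 and clodronate gave changes in the same direction that did not pass over all genes. With anti-Gr1, Dbp was at 132 and 49.3 FPKM, Nr1d1 at 103 and 85.1 and Nr1d2 at 48.6 and 53.0, above the same IgG libraries that anti-GPIba was compared with. The differences were 1.94 ± 0.70, 1.95 ± 0.59 and 1.26 ± 0.27 (adjusted p = 0.24 for each). No member was called and 0% of 13401 genes passed in edgeR, with 2432 at an unadjusted p under 0.05, whereas DESeq2 called 142 genes and 2 members, Nr1d1 and Nr1d2. The macrophage markers summed to 1266 to 1295 FPKM and the S and G2/M phase genes to 108 to 109 with anti-Gr1. The neutrophil markers summed to 28.5 to 48.1 FPKM against 180 to 532 with IgG, and the endothelial markers to 2882 to 3037 against 2023 to 2427. Fibroblast and adventitia markers summed to 260 to 464 against 115 to 154. Their part in the changes was not tested.

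With clodronate, Per2 was at 5.68 and 2.79 FPKM against 1.33 and 1.09 with PBS liposomes (1.69 ± 0.43, adjusted p = 0.15). Cry2 was at 23.4 and 11.7 against 8.04 and 5.51 (1.26 ± 0.34, adjusted p = 0.17), and Dbp at 110 and 41.8 against 22.6 and 16.3 (1.85 ± 0.70, adjusted p = 0.28). The 2 libraries differed from each other, with library 1 the higher for each of these genes.

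No member was called with clodronate, where 0.119% of 13401 genes passed. Without clodronate library 2, which leaves a lone clodronate library, the changes were 1.67 for Cry2, 1.78 for Per1, 2.12 for Per2 and 1.22 for Nr1d2. DESeq2 with all libraries called Per2, Cry2 and Nr1d2, and the 0.119% is not the share of genes called by DESeq2. Library 1 had S and G2/M phase genes at 104 FPKM and library 2 at 913, against 293 and 976 in the PBS libraries, and macrophage markers at 250 and 241 against 1360 and 2238. Neutrophil markers summed to 53.3 and 72.3 against 195 and 588 FPKM, and endothelial markers to 3715 and 2880 against 2068 and 2208, and the part of any of these was not tested. In the single 100 bp pools, which have no replicate, clodronate against PBS gave 15.1 and 6.24 FPKM for Dbp, 14.2 and 5.37 for Per3, 7.72 and 4.18 for Cry2 and 3.35 and 1.45 for Per1. Of the 10 members, Clock alone was lower with clodronate there (2.15 against 3.71).

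At 7 d the flow comparison was made in Rbfox2 control mice. No member passed, against 2.4% of 13352 genes called in either direction. With the replicate number as a block, 8 members passed, Arntl among them as higher, and DESeq2 called 3 without the block. The 2.4% is the share in edgeR without the block, so these counts cannot be set beside it. Dbp was at 99.7, 15.5 and 29.2 FPKM in low-flow libraries 1, 4 and 5 and at 105 and 195 in high-flow libraries 4 and 5 (-1.75 ± 0.64, adjusted p = 0.13). Per2 was at 14.3, 3.995 and 6.01 against 19.7 and 24.7 (-1.56 ± 0.44, adjusted p = 0.074). Cry2 was at 30.8, 9.27 and 9.16 against 32.8 and 40.6 (-1.26 ± 0.49, adjusted p = 0.15). Every low-flow library lay below both high-flow libraries for these genes, with library 1 the nearest to them. Macrophage markers summed to 310 to 1475 FPKM at low flow and 45.8 to 121 at high flow, and endothelial markers to 2069 to 3506 and 5477 to 5684, and their part in these values was not tested.

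Per1 was at 7.86 FPKM in library 1 and 0.856 and 0.775 in libraries 4 and 5, against 6.85 and 6.32 at high flow (-1.16 ± 0.84, adjusted p = 0.42). Without low-flow library 1, the changes were -3.08 for Per1, -2.82 for Dbp, -2.22 for Per2, -2.06 for Cry2, -1.86 for Per3, -1.51 for Nr1d1 and -1.33 for Nr1d2, and these 7 members passed (adjusted p 0.0013 to 0.015). The share of all genes called in that fit is not reported here, so the 7 cannot be weighed against it. Among the low-flow control libraries, library 1 also had the lowest sum of S and G2/M phase genes (147 FPKM, against 879 and 1246) and the highest of endothelial markers (3506, against 2069 and 2248), and the code of its read files, which EC-KO library 1 shares, differs from those of the other 7 d libraries. Low-flow control library 4 shares the code of the high-flow control libraries, and its Dbp, Per1, Per2 and Cry2 lay below both of them.

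Arntl moved the other way in these mice. It was at 6.07, 11 and 9.52 FPKM at low flow and at 3.52 and 0.258 at high flow, so every low-flow library was higher, but the change of 2.16 ± 0.95 did not pass (adjusted p = 0.19). High-flow library 5, which had the lowest Arntl of the 7 d libraries, had Dbp at 195 and Nr1d1 at 166 FPKM, above those of library 4 (105 and 82.1). Clock (0.45 ± 0.39) and Cry1 (-0.07 ± 0.30) overlapped between groups.

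In Rbfox2 EC-KO mice no member passed in the flow comparison, against 1.09% of 13352 genes called. With the replicate number as a block 4 passed, a fit to which the 1.09% does not belong. Dbp was at 47.7, 50.4 and 74.9 FPKM at low flow and at 116 and 218 at high flow (-1.56 ± 0.64, adjusted p = 0.28). Nr1d1 was at 61.7, 70.0 and 79.3 against 127 and 226 (-1.35 ± 0.40, adjusted p = 0.14), and Per2 at 12.3, 7.41 and 8.22 against 19.0 and 21.5 (-1.13 ± 0.44, adjusted p = 0.26). Each of these had no overlap, with the low-flow libraries closer to each other than in control mice. Macrophage markers summed to 912 to 1684 FPKM at low flow and 79.8 to 101 at high flow, and endothelial markers to 2837 to 3072 and 5682 to 5887, whose part was not tested either. With only these groups in the fit, Dbp, Nr1d1 and Per2 passed (adjusted p 0.032 to 0.038), and with libraries 4 and 5 alone Cry2, Per1 and Per2 did (adjusted p 0.019 to 0.022). The shares of all genes called in those fits are not reported here.

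Between genotypes at low flow no member passed, and 0% of 13352 genes did in edgeR, with 880 at an unadjusted p under 0.05 and 11 called by DESeq2. Per1 was at 5.03, 2.92 and 2.13 FPKM in EC-KO libraries 1, 4 and 5 and at 7.86, 0.856 and 0.775 in control (0.14 ± 0.76, adjusted p = 0.97), and Cry2 at 33.4, 20.9 and 16.9 against 30.8, 9.27 and 9.16 (0.58 ± 0.45, adjusted p = 0.73). Control libraries 4 and 5 lay below all EC-KO libraries and control library 1 did not. Without control library 1, Per1 (2.06), Per3 (1.39) and Cry2 (1.38) were higher in EC-KO (adjusted p 0.020 to 0.034). In that fit 1476 of 13251 genes were called, 738 of them higher. Without another library the change of Per1 could turn to -0.31. Fibroblast and adventitia markers summed to 522.7, 1662 and 538.1 FPKM in EC-KO libraries 1, 4 and 5, against 495.1, 238.8 and 175.1 in control. S and G2/M phase genes summed to 183.6, 228.2 and 551.7 against 147.4, 879.4 and 1246 FPKM. The part of these markers in the low-flow genotype values was not tested. At high flow no member passed, against 0.00749% of 13352 genes, with Dbp at 116 and 218 FPKM in EC-KO and 105 and 195 in control.

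The flow change was not called different between genotypes for any member in the test of that difference itself. The difference ran from -1.75 ± 1.25 for Arntl to 0.56 ± 0.43 for Cry1, with Dbp at 0.18 ± 0.92 and Per2 at 0.42 ± 0.63 (adjusted p = 0.99 or more for each member), and 0% of 13352 genes passed, with 538 at an unadjusted p under 0.05 and 19 called by DESeq2, no member among them. With SE of 0.43 to 1.25 on the log2 scale, only large differences could have passed at this number of libraries.

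**Figure D4:**
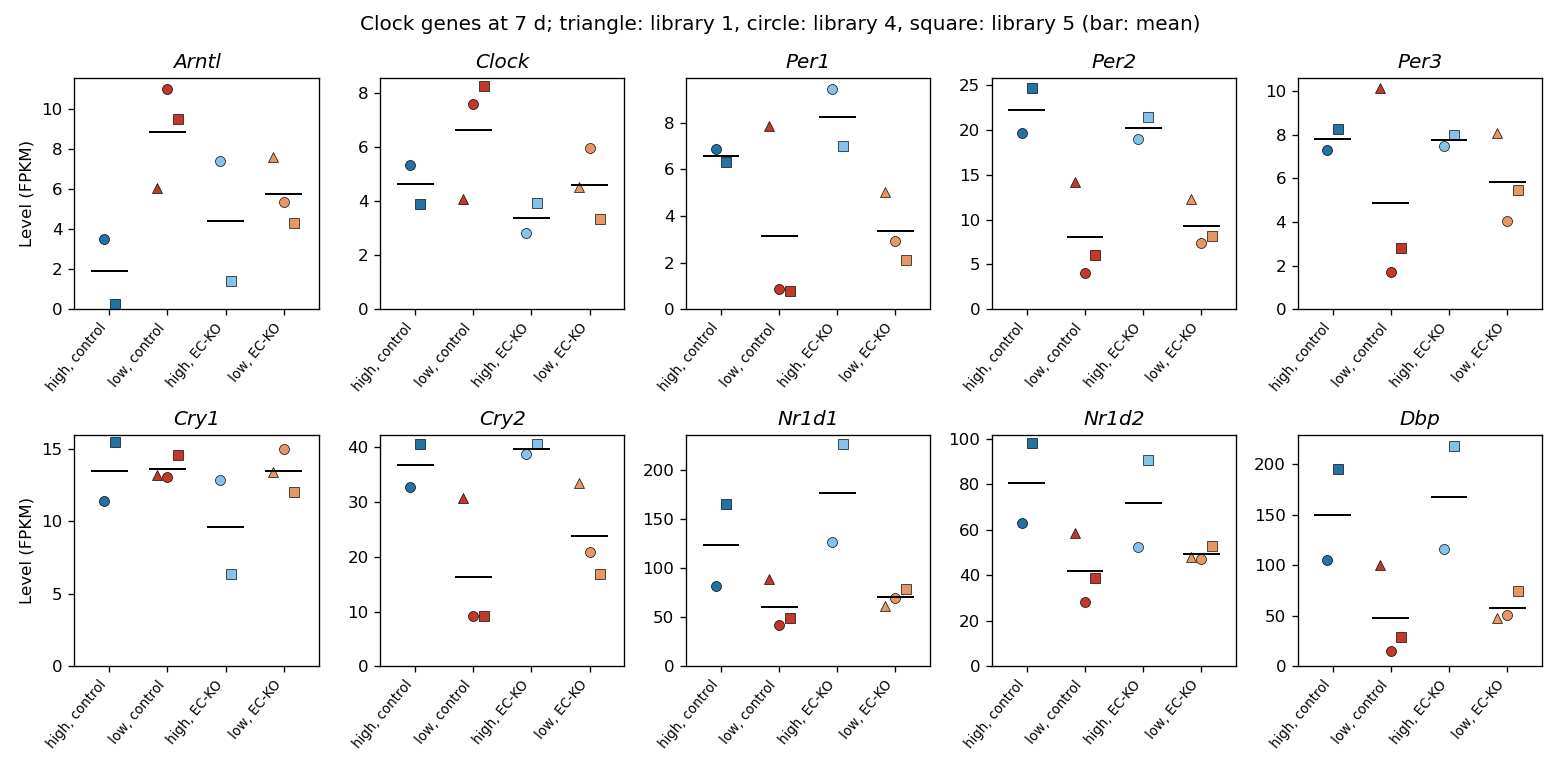
Level in FPKM (vertical axis, linear from 0) of each clock gene in each 7 d library, by flow and genotype, with marker shape for the library number and a bar at the mean. Low-flow control library 1 (triangle) sits at 99.7 FPKM for Dbp and 7.86 for Per1, apart from libraries 4 and 5.

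In culture each condition was 1 library, so values stand without a test. Dbp in the aortic line was at 31.1 FPKM without addition. It was at 41.9 with 10% plasma for 48 hr, at 34.2 when platelets and macrophages were added and at 16.3 with the combination, and Nr1d2 was at 46.7, 51.0, 52.2 and 27.3 in the same order. Per3 was at 2.55, 2.18, 2.33 and 0.672 and Arntl at 5.36, 5.73, 5.08 and 8.31 FPKM, so the combined treatment had the lowest Dbp, Nr1d2, Per3 and Cry2 (9.13) and the highest Arntl of the 4 libraries. Per2 (3.23, 3.86, 2.62 and 3.56) and Per1 (1.15, 1.38, 0.522 and 1.15) were lowest instead with platelets and macrophages. The macrophage markers summed to 16.4, 45.0, 391 and 268 FPKM in the same order. Endothelial markers were low in the line, with the 11 markers summing to 149 to 176 FPKM and Cdh5 at 1.86 to 5.75, against 2218 to 2763 and 63.3 to 71.4 in the primary cells.

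Primary cells with and without Rbfox2, after 7 days in culture, had Dbp at 4.66 (control) and 5.92 (EC-KO), Per2 at 1.96 and 1.203, Cry1 at 14.9 and 14.8, Arntl at 8.69 and 7.33 and Clock at 10.6 and 8.62 FPKM. These libraries also differed in macrophage markers, which summed to 346 FPKM in control and 2.04 in EC-KO, where 10 of the 14 were at 0. Smooth muscle markers summed to 3482 FPKM in control and 2770 in EC-KO, beside endothelial markers at 2513 and 2763. The eGFP+ primary cells, read at 100 bp after 5 days, had Dbp at 3.00, Per2 at 0.422 and Cry2 at 1.96 FPKM. Their smooth muscle markers summed to 1648 FPKM and their endothelial markers to 2218. S and G2/M phase genes summed to 421 to 1133 FPKM in the 7 cultured libraries.

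The members also varied together between libraries of the same group. Deviations of log2 CPM from the group mean were correlated over 33 intimal libraries of 14 groups, which share depth and scaling, so the values are a description. Cry2, Per1, Per2 and Per3 formed the tightest set, with r from 0.76 to 0.92, and the highest pair was Cry2 with Per1. Dbp and Nr1d1 were at 0.89, while Arntl was at -0.36 with Dbp and -0.34 with Nr1d1. Over the 23 libraries at 48 hr alone these last values were -0.13 and -0.07, and Dbp with Nr1d1 was at 0.90. Cry1 went with Nr1d2 (0.62) and Per2 (0.58) more than with its paralog Cry2 (0.39).

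The 5 genes of 11362 whose deviations were most like those of Dbp were Il15 (0.92), Bace2 (0.90), F830016B08Rik (0.90), Surf1 (0.89) and Nr1d1 (0.89), and the 5 most opposed were Hspa8 (-0.83), a constitutive chaperone, Tubb5 (-0.69), Gapdh (-0.69), Rpl4 (-0.68) and Ldha (-0.67). For Arntl the highest were Leo1 (0.77), Aars2 (0.70), Alkbh1 (0.69), Soat1 (0.68) and Rel (0.67), and the lowest S100b (-0.64), Rpgrip1 (-0.56), Aox1 (-0.51), Lrrc27 (-0.50) and Stox1 (-0.47). Dbp itself ranked 11331 of the genes by likeness to Arntl, and Nr1d1 11323.

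**Figure D5:**
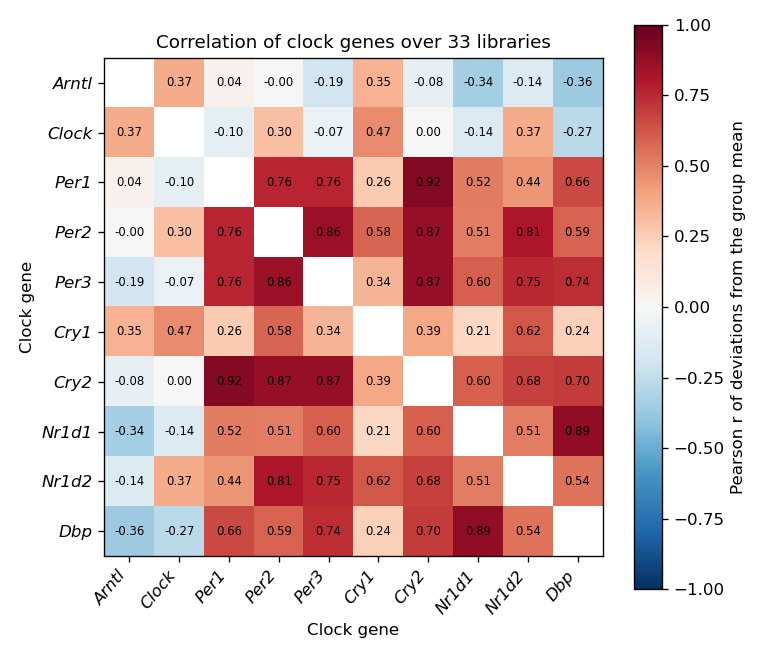
Pearson r (colour and number) between clock genes over the 33 intimal libraries, after removal of each group's mean of log2 CPM. Cry2 and the Per genes reach 0.76 to 0.92 with each other, Dbp and Nr1d1 0.89, and Arntl is below 0 with Dbp and Nr1d1.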

How the data were processed

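The 42 libraries were read from a table in which the authors deposited expected counts per gene (STAR 2.5.1b, or TopHat for the untreated pools in the methods, and RSEM 1.2.15, genome build mm9, per the labels), not normalized. Effective lengths in bases, 1 per gene for all libraries, were deposited by the authors too. Of 206 columns of values, 163 were not used, among them second sequencing runs of the 100 bp libraries and shallow first runs of 2 low-flow libraries at 7 d. Counts were rounded and tested with edgeR 4.0.16 in R 4.3.3 (default filter, TMM, quasi-likelihood, Benjamini-Hochberg over all genes, threshold 0.05), and FPKM were computed from counts, effective length and library totals with pandas 2.3.3. The named genes were the 10 members, up to 6 called genes per list by size of change (some are not reported here), and the 5 highest and 5 lowest correlations among genes with a mean of at least 1 FPKM. DESeq2 1.42.0 and other settings were alternatives. The code was tested on simulated data. Members and lists were chosen with earlier results of these data known. Nothing states that pools within a group came from separate litters or days, so p-values measure the spread between pools. Replicate numbers are those of the columns, and at 7 d low-flow EC-KO and control libraries of the same number deviated together (r = 0.54, 0.18 and 0.43), where the block by number changed no call of a member.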

Additional observations from a re-analysis of the deposited data

How the results depend on the processing

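The counts of members called against high flow in untreated mice stayed at 6 in every alternative, and against sham at 4 to 6. Leaving out 1 library gave 3 to 6 members in the IgG flow comparison, 3 to 4 in the PBS one, 0 for anti-GPIba, 0 to 4 for clodronate, 0 to 7 for the 7 d control flow comparison and 0 to 3 for EC-KO against control at low flow, where Per1 ranged from -0.31 to 2.06 and Per3 from -0.11 to 1.39. A lone library left in a group was assumed to vary like the others of its fit. DESeq2 called 2 members for anti-Gr1, 3 for clodronate, 3 for the 7 d control flow comparison and 1 for EC-KO. Equal replicate numbers are not stated to pair flow groups or the 48 hr groups. By that number, low-flow PBS libraries deviated together with high-flow PBS (r = 0.53) and clodronate libraries (r = 0.52). The values were 0.03 for low and high flow with IgG, 0.01 for anti-GPIba and 0.11 for anti-Gr1 with IgG. At 7 d, low and high flow were at 0.18 in control and -0.01 in EC-KO. With the replicate block, 7 members were called for anti-GPIba, 8 for the 7 d control and 4 for the EC-KO flow comparison, and no other count moved by over 1.5 times. Fitting only the 2 EC-KO flow groups gave 3. Libraries 4 and 5 alone, a setting chosen after seeing the data, gave 7 for control, 3 for EC-KO and 2 between genotypes at low flow. Of the 10 genes named as most like or unlike Dbp, 4 were also named by Spearman correlation and 3 with 48 hr libraries only, and of those for Arntl 3 and 0. Of 76 changes of members that passed under no setting, 37 changed sign in some alternative. The second sequencing runs of the untreated pools, planned as alternatives, were not run because their columns outnumber the labelled samples. Over all settings the count of genes called went from 2216 to between 1 and 4449 for anti-GPIba, from 0 to at most 225 for anti-Gr1, from 16 to between 0 and 937 for clodronate, from 320 to between 3 and 3897 for 7 d control, from 146 to between 1 and 1317 for EC-KO and from 0 to at most 1476 between genotypes at low flow. It was 5195 against 3448 to 5682 for low against high flow and 4499 against 2513 to 4868 for low flow against sham in untreated mice, 5422 against 2141 to 6099 for IgG and 4692 against 1482 to 5451 for PBS. The low counts of untreated pools limit Dbp, Per2 and Cry1.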
